A study of Mus musculus with 8 samples.

Results

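The unfolded protein response and the folding machinery of the endoplasmic reticulum (ER) were followed through 33 genes in mouse hepatocyte AML12 cells cultured with irisin, the peptide cleaved from Fndc5. The genes were chosen by name, and every probe whose accession matched one of them was used, which gave 42 of the 39429 probes and 33 of the 21612 gene symbols matched on the arrays. Of these genes, 32 had a probe bright enough to be tested, and none of the 32 reached the 1.5-fold change with an adjusted p under 0.05 that the study used. Of all tested genes 0.531% did so as higher and 10.2% as lower. In the brighter 5 of 10 bins of genes by signal, which held 25 of the 32, the shares were 0.196% and 0.461%. The largest changes were a 1.37-fold higher Edem1, which carries misfolded glycoproteins to degradation, and a 1.34-fold lower Hspa5, the Hsp70 chaperone BiP. For 29 of the 32 genes the 95% interval of the change lay wholly within 1.5-fold in either direction. These values are from arrays each scaled to a fixed percentile of its signal. Control and irisin arrays lay on separate slides, so the intervals cannot separate slide from treatment. After spike-in scaling 8 of the genes passed both thresholds as higher, beside 27.6% of all tested genes. Without any scaling 23 did, beside 66.8% of all tested genes. The median log2 change of the group was then 0.51 and 0.70, beside 0.49 and 0.67 over all tested genes.

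AML12 is a line of hepatocytes from a mouse carrying a human transforming growth factor alpha transgene, and all samples share that background. Of 8 samples, 4 were control cells and 4 received 0.5 µg/ml irisin for 24 h in DMEM F-12 medium with fetal bovine serum, and the control cells had the same medium and time without irisin. Each sample's RNA carried the dye Cy3 and was measured on an Agilent array of its own. The labels do not say that the replicates are separate cultures, so the p-values measure the spread between these samples, which may be technical. The cells were grown to ask which genes irisin changes in hepatocytes, and the ER genes are 1 group among them.

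The ER folds the proteins that a hepatocyte secretes. When unfolded proteins build up there, the chaperone BiP is drawn away from the sensors IRE1, PERK and ATF6, and the freed sensors start the unfolded protein response. IRE1 splices the Xbp1 transcript, PERK slows translation and raises ATF4 and CHOP, and ATF6 is cut in the Golgi to give a transcription factor. The result is more chaperones, more folding enzymes and more of the machinery for ER-associated degradation (ERAD), which returns failed proteins to the cytosol. Albumin, transferrin and the other plasma proteins made by hepatocytes all pass through this system.

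The promoters of many of these genes carry the ER stress element (ERSE), which binds NF-Y through its CCAAT letters and ATF6 or XBP1 through its CCACG letters. The 250 bases before and 50 bases after the annotated start of each gene, from the RefSeq promoter table of GRCm38.p6, were searched on both strands for ERSE (CCAAT, any 9 bases, CCACG), for ERSE-II (ATTGG, any base, CCACG) and for the XBP1 motif UPRE (TGACGTG). Read on the other strand, ATTGG stands for the same letters as the CCAAT box, so both elements are built of the same letters, and UPRE shares CGTG with the reverse of CCACG and can overlap an element. A promoter was matched for 28 of the 33 genes. The other 5, Hyou1, Manf, Atf6, Ppp1r15b and Derl1, have no entry in the table. ERSE was found in 9 of the 28 promoters (32.1%) and in 37 of 27025 genes with a promoter (0.137%). ERSE-II was found in 2 of the 28 and in 12 of the 27025 genes (0.0444%). Either element was found in 11 of the 28 promoters, some of them of ERAD genes, and the rest held neither. These sites are shown 5′ to 3′ along the element, with the CCAAT or ATTGG and the CCACG letters in capitals and the strand given on the genome.
Hspa5, chr2:34772025-34772043, plus strand: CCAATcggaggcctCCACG
Hsp90b1, chr10:86705638-86705656, minus strand: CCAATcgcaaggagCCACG
Hsp90b1, chr10:86705533-86705551, plus strand: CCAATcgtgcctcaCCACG
Dnajc3, chr14:118937827-118937845, plus strand: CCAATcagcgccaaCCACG
Calr, chr8:84847075-84847093, plus strand: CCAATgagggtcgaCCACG
Canx, chr11:50325800-50325818, minus strand: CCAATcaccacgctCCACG
Pdia6, chr12:17266491-17266509, plus strand: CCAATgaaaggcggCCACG
Creld2, chr15:88819520-88819538, minus strand: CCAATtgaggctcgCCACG
Syvn1, chr19:6046532-6046550, plus strand: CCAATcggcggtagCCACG
Derl3, chr10:75893242-75893260, minus strand: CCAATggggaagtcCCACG
Dnajb11 (ERSE-II), chr16:22857852-22857862, plus strand: ATTGGcCCACG
Herpud1 (ERSE-II), chr8:94386377-94386387, plus strand: ATTGGgCCACG
Hsp90b1 held 2 elements on opposite strands. The outer letters were fixed by the search, and the 9 bases between them differed from site to site. The element of Dnajb11 began 7 bases after the annotated start, and all others lay between positions -212 and -26, counted from the start.

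**Figure D1:**
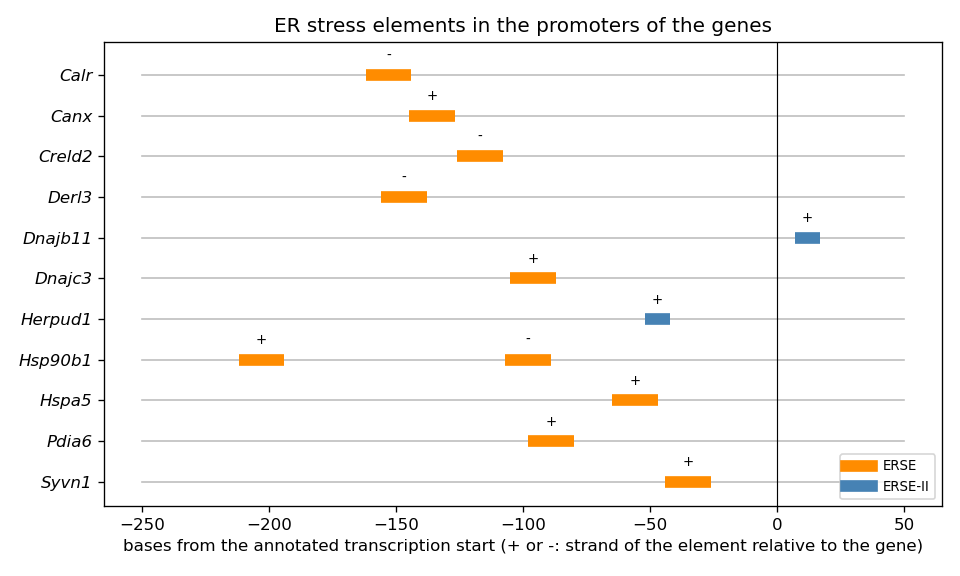
Position of the ER stress elements in the promoters that held them, in bases from the annotated transcription start (vertical line at 0), with the strand relative to the gene above each bar. ERSE (orange) was found in 9 genes and ERSE-II (blue) in 2, and only the element of Dnajb11 lies after the start.

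The 250 bases before the start are shown for the gene that was lowest and the gene that was highest with irisin, because their promoters differ in this element. In Hspa5 (GRCm38.p6, chr2:34771840-34772089, plus strand) the capitals mark the ERSE, and the promoter was also the only one of the 28 with UPRE, which 2.22% of all genes with a promoter held and which did not overlap the ERSE. In Edem1 (GRCm38.p6, chr6:108828391-108828640, plus strand) none of the 3 motifs was found, and the capitals mark the 2 places where CCACG or its reverse stood alone.
Hspa5: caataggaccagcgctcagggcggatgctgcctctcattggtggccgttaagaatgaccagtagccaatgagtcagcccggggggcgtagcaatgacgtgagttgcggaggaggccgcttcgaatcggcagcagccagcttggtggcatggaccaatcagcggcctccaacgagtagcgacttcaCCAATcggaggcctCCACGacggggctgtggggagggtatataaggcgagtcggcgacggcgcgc
Edem1: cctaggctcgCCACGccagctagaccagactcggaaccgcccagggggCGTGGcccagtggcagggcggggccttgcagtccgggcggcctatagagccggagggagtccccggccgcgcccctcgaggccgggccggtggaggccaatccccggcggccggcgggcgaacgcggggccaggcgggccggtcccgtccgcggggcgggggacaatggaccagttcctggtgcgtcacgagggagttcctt
A match is a description of the letters and was not tested for binding.

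The scanner's processed signal of a probe, with marked spots left out, was put on a log2 scale on which each array's 75th percentile is 0. A value of 0 is thus a probe at that percentile, and a difference of 1 is a 2-fold difference. That percentile lay at a signal of 372 to 534 for control and 682 to 850 for irisin, and between 59.5% and 64.1% of the probes of an array were well above background. All 4 control arrays lay on 1 slide and all 4 irisin arrays on another, so slide and treatment cannot be told apart. All 12 hepatocyte markers were well above background on the 8 arrays. The log2 of their summed signal ran from 8.87 to 9.02 in control cells and from 8.57 to 8.80 with irisin, with no overlap. This sum weighs the brightest markers most, which were Krt18 (log2 change -0.47) and Trf (-0.39). Of the 12 markers, 10 had a change below 0 and 2 above, and 64% of all tested genes were below 0. The part of this shift in the ER results was not tested. Of the markers of other liver cells, 4 of 5 for cholangiocytes, 2 of 5 for macrophages, 2 of 5 for endothelial cells and 1 of 6 for stellate cells or fibroblasts were well above background on all arrays. The log2 of their summed signal on the control and irisin arrays was 5.79 to 5.95 and 5.86 to 5.93 for cholangiocytes, -0.90 to -0.66 and -1.13 to -0.89 for macrophages, -0.51 to -0.34 and -1.28 to -0.78 for endothelial cells, and -4.62 to -4.32 and -4.71 to -4.51 for stellate cells or fibroblasts. The endothelial markers Cdh5 and Lyve1 and 5 of the 6 stellate markers were above background on no array. The 2 tested macrophage markers and the 2 tested endothelial markers were dim, at median signal percentiles of 43.1 and 36.3, beside 57.6 over all tested genes. All samples here are of the AML12 line. In bulk RNA, fewer cells of a type and less RNA per cell cannot be told apart, and whether shares of cells differed was not tested.

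Over all 14312 genes tested with limma, 76 (0.531%) were called higher and 1461 (10.2%) were called lower with irisin at an adjusted p under 0.05 and 1.5-fold. Of the 32 ER genes tested, 0 were called in either direction. With the adjusted p alone 1 ER gene was higher (Edem1) and 1 was lower (Hspa5), against 2.65% and 17.9% of all genes. With an unadjusted p under 0.05, 3 were higher and 5 lower, against 5.94% and 23.6%. Most of the lower calls were in dim probes. In the dimmest of 10 bins of genes of equal size by signal, the median log2 change was -0.57 and 48.2% were called lower, whereas in the 5 brighter bins, which held 25 of the 32 ER genes, 0.196% were called higher and 0.461% lower. With the adjusted p alone, 1.84% of these brighter genes were higher and 6.25% lower.

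As a group, the ER genes lay close to the other genes of the arrays. Their median log2 change was -0.038, beside -0.064 over all tested genes and -0.049 over the 5 brighter bins. Of the 32, 22 (68.8%) had a change below 0 and 10 above, and 64% of all tested genes were below 0. The sizes were small, with 13 genes changed by less than 0.1 and 28 by less than 0.25 on the log2 scale. The standard errors ranged from 0.080 to 0.17.

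**Figure D2:**
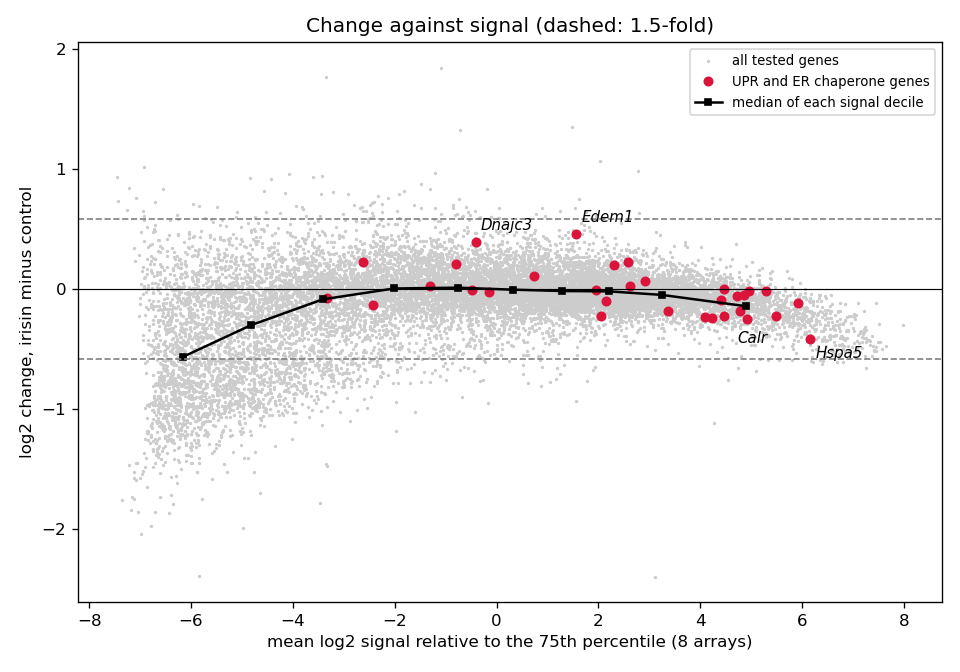
Log2 change with irisin against the mean log2 signal relative to the 75th percentile over 8 arrays for all 14312 tested genes (grey) and the 32 ER genes (red), with the median of each of 10 bins by signal (black squares) and 1.5-fold (dashed). The median is -0.57 in the dimmest bin, near 0 in the middle and -0.15 in the brightest bin, where 14 of the ER genes lie, and no ER gene reaches a dashed line.

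In the sensors and their transcription factors no change passed the adjusted p. Xbp1, which the IRE1 enzyme splices to make an active factor, was at 4.92, 4.91, 5.04 and 5.05 on the control arrays and at 4.91, 5.04, 4.88 and 4.99 on the irisin arrays. The groups overlapped, with a log2 change of -0.023 (SE 0.080, adjusted p = 0.883). The arrays report the level of the transcript and cannot separate its spliced form. Ern1, which codes for IRE1, was at -2.44, -2.45, -2.27 and -2.30 in control cells and at -2.67, -2.40, -2.55 and -2.38 with irisin. Its 2 lowest values were irisin arrays, but the groups overlapped, with a change of -0.14 (SE 0.093, adjusted p = 0.354). After normexp background correction its change was -0.32 (adjusted p = 0.00408). Eif2ak3, which codes for PERK, was at 2.03, 1.86, 1.83 and 2.08 in control cells and at 1.90, 2.20, 1.82 and 1.84 with irisin. Irisin replicate 2 was the highest of the 8 arrays for this gene, and the change was -0.010 (SE 0.11, adjusted p = 0.962). Atf6 was at -1.41, -1.23, -1.29 and -1.38 in control cells and at -1.36, -1.41, -1.34 and -1.11 with irisin, with irisin replicate 4 above every control array and a change of 0.023 (adjusted p = 0.896). The intervals of these 4 genes ran from -0.34 to 0.23 in all.

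None of the genes grouped under the PERK arm passed the adjusted p either. Ddit3 codes for CHOP, the factor tied to cell death under lasting ER stress. It was at 0.73, 0.63, 0.69 and 0.64 in control cells and at 0.98, 0.81, 0.56 and 0.77 with irisin. The irisin values included both the highest and the lowest of the 8, with a change of 0.11 (SE 0.097, adjusted p = 0.501). Ppp1r15a codes for GADD34, which with protein phosphatase 1 reverses the block of translation. It was at 2.20, 2.15, 2.07 and 2.22 in control cells and at 1.82, 2.22, 1.72 and 1.99 with irisin. Irisin replicate 2 lay among the highest values and the other 3 irisin arrays below every control array, so the change of -0.22 (SE 0.11) had an adjusted p of 0.187. Its constitutive relative Ppp1r15b had a change of -0.0062 (SE 0.093, adjusted p = 0.975).

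Among the chaperones of the Hsp70 and Hsp90 families, BiP stood out. Hspa5 was at 6.46, 6.34, 6.31 and 6.37 on the control arrays and at 6.03, 6.11, 5.83 and 5.84 on the irisin arrays. Every irisin array was below every control array. The log2 change was -0.42 (SE 0.091, 95% interval -0.62 to -0.22), a 1.34-fold lower level with an adjusted p of 0.00604, and the exact permutation test over 70 assignments gave its smallest possible two-sided p, 0.0286. The change depended on how the arrays were scaled. With quantile normalization it was -0.12 (adjusted p = 0.312), with cyclic loess -0.16 (adjusted p = 0.171), and with spike-in scaling it turned to 0.13. Other bright genes of the group, among them Hsp90b1, Calr and Herpud1, also had changes nearer to 0 or above it with these 3 scalings. Hsp90b1 (GRP94), the Hsp90 chaperone of the ER, was at 5.70, 5.62, 5.52 and 5.58 in control cells and at 5.58, 5.00, 5.49 and 5.43 with irisin. The value of 5.00 on irisin replicate 2 stood far below the rest, and the change of -0.23 (SE 0.12, adjusted p = 0.232) was -0.10 (adjusted p = 0.361) without that array and 0.012 (adjusted p = 0.972) with quantile normalization.

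The helpers of BiP had values on both sides of 0. Dnajc3 (p58IPK), a J-domain partner of BiP that also restrains PERK, was at -0.41, -1.03, -0.45 and -0.51 in control cells and at -0.03, -0.60, 0.02 and -0.23 with irisin. It had the highest change in this family, 0.39 (SE 0.17, 95% interval 0.016 to 0.77), but the replicate 2 arrays were the lowest of both groups, the groups overlapped, and the adjusted p was 0.129. Without irisin replicate 2 the change was 0.52 (adjusted p = 0.0286), and without control replicate 2 it was 0.25 (adjusted p = 0.300). With the replicate number as a block its adjusted p was 0.0183. Dnajb11, another J-domain partner, was at 3.38, 3.47, 3.44 and 3.58 in control cells and at 3.21, 3.43, 3.16 and 3.31 with irisin. Irisin replicate 2 reached the control values, and the change was -0.19 (adjusted p = 0.163). Dnajb9 (ERdj4), a J-domain protein and known XBP1 target, had a change of -0.026 (SE 0.12, adjusted p = 0.912), and Hyou1 (GRP170), which releases nucleotide from BiP, had a change of -0.075 (SE 0.13, adjusted p = 0.753). The change of Hyou1 was -0.36 (adjusted p = 0.00727) with normexp, 0.051 with quantile normalization and 0.073 with cyclic loess. Sdf2l1, which works with Dnajb11, had a change of -0.10 (SE 0.10, adjusted p = 0.549). The median of the 7 genes was -0.10.

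**Figure D3:**
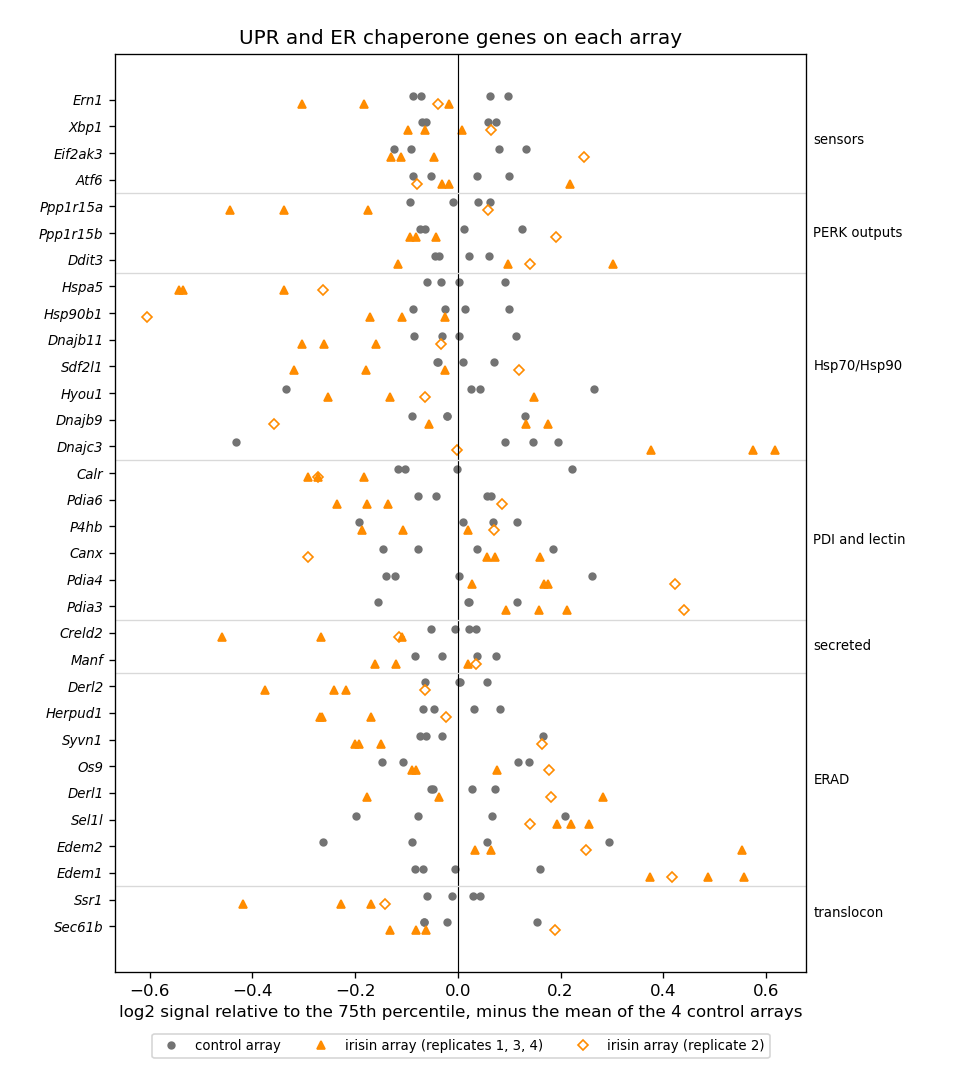
Log2 signal of the 32 tested ER genes on each array, relative to the 75th percentile and minus the mean of the 4 control arrays, with control arrays in grey and irisin arrays in orange (replicate 2 as an open diamond). All 4 irisin arrays of Hspa5 lie below the control arrays and all 4 of Edem1 above, and the diamond often stands apart from the other irisin arrays, as in Hsp90b1.

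The lectin chaperones calreticulin and calnexin hold new glycoproteins while they fold, and the pair gave different values. Calr was at 4.94, 4.95, 5.27 and 5.05 in control cells and at 4.78, 4.78, 4.76 and 4.87 with irisin. All irisin arrays were below all control arrays, with a change of -0.25 (SE 0.093, 95% interval -0.46 to -0.048) whose adjusted p was 0.0739. It was -0.087 (adjusted p = 0.562) with quantile normalization, -0.074 (adjusted p = 0.625) with cyclic loess and -0.26 (adjusted p = 0.0335) with normexp. Canx was at 4.66, 4.51, 4.39 and 4.32 in control cells and at 4.63, 4.18, 4.54 and 4.53 with irisin. Its means were both 4.47, and the interval of the change ran from -0.26 to 0.26. The difference between the changes of the 2 genes was not tested.

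The protein disulfide isomerases, which form and shuffle disulfide bonds, showed small changes in both directions. Pdia3 (ERp57), the partner of both lectins, was at 2.58, 2.49, 2.31 and 2.49 in control cells and at 2.68, 2.91, 2.62 and 2.56 with irisin. Only the lowest irisin value fell inside the control range, and the change was 0.23 (SE 0.10, adjusted p = 0.137), or 0.39 (adjusted p = 0.00265) with normexp. Pdia4 (ERp72) had a change of 0.20 (SE 0.12, adjusted p = 0.273), with control values from 2.06 to 2.46 and irisin values from 2.23 to 2.62. Pdia6 was at 5.94, 6.04, 5.90 and 6.05 in control cells and at 5.85, 6.07, 5.75 and 5.81 with irisin. Irisin replicate 2 lay above the controls and its other 3 irisin values below them, for a change of -0.12 (adjusted p = 0.430). P4hb, the isomerase PDI, had a change of -0.051 (SE 0.097, adjusted p = 0.772).

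Of the secreted proteins that mark ER stress, Creld2 was at 4.25, 4.16, 4.24 and 4.21 in control cells and at 3.95, 4.10, 3.75 and 4.11 with irisin, each a mean over 10 spots. The groups did not overlap, and the change was -0.24 (SE 0.095, adjusted p = 0.1003). Manf, a secreted protein that binds BiP, was at 4.78, 4.66, 4.82 and 4.71 in control cells and at 4.58, 4.78, 4.62 and 4.76 with irisin. Its groups overlapped and its change was -0.056 (adjusted p = 0.699).

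The ERAD genes held the other change that passed the adjusted p. Edem1 is a mannosidase-like protein that trims N-glycans of misfolded proteins and hands them on for degradation, and it is a known target of XBP1. It was at 1.25, 1.33, 1.27 and 1.49 on the control arrays and at 1.71, 1.75, 1.89 and 1.82 on the irisin arrays. Every irisin array was above every control array. The log2 change was 0.46 (SE 0.087, 95% interval 0.27 to 0.65), 1.37-fold, with an adjusted p of 0.00275, and the exact permutation test gave 0.0286. In all 21 alternatives fitted for this gene it stayed higher with an adjusted p of at most 0.0114, and its change ran from 0.41 to 1.20. Its relative Edem2 was at -2.68, -3.00, -2.44 and -2.82 in control cells and at -2.18, -2.49, -2.67 and -2.70 with irisin. Those values overlapped, with a change of 0.22 (SE 0.15, adjusted p = 0.321) that was -0.11 (adjusted p = 0.435) after normexp, which lacked 1 of its arrays.

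The ubiquitin ligase complex of ERAD is built on Syvn1 (HRD1), the ligase, and Sel1l, its adaptor. Sel1l was at -1.09, -0.97, -0.68 and -0.82 in control cells and at -0.67, -0.75, -0.64 and -0.70 with irisin. The irisin values lay close together at the top of the control range, and the change was 0.20 (SE 0.098, adjusted p = 0.176). Syvn1 was at 4.40, 4.38, 4.43 and 4.62 in control cells and at 4.27, 4.62, 4.26 and 4.31 with irisin. Irisin replicate 2 was at the level of the highest control while the other 3 lay below all controls, so the change of -0.094 had an adjusted p of 0.593. Os9, a lectin that brings glycoproteins to Sel1l, had a change of 0.021 (SE 0.10, adjusted p = 0.920) over 10 spots per array. Herpud1, a stress-induced protein of this complex, was at 4.83, 4.81, 4.96 and 4.91 in control cells and at 4.71, 4.86, 4.61 and 4.61 with irisin, a change of -0.18 (SE 0.086, adjusted p = 0.166). The change was -0.028 (adjusted p = 0.822) with quantile normalization. Here too irisin replicate 2 lay inside the control range and the others below it.

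The derlins are membrane proteins through which ERAD substrates leave the ER. Derl2 was at 4.57, 4.51, 4.63 and 4.57 in control cells and at 4.33, 4.51, 4.19 and 4.35 with irisin, all irisin values being below all controls by a narrow margin on replicate 2. Its change was -0.22 (SE 0.086, adjusted p = 0.0888). Derl1 had a change of 0.063 (SE 0.11, adjusted p = 0.744), or 0.25 (adjusted p = 0.0384) with normexp, with control values from 2.83 to 2.96 and irisin values from 2.71 to 3.17. Derl3 was well above background on 1 control and 1 irisin array and was not tested. The median of the 8 tested ERAD genes was 0.042, with 5 above 0 and 3 below.

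The translocon brings new proteins into the ER. Ssr1, a subunit of the TRAP complex beside the channel, was at 4.38, 4.39, 4.34 and 4.29 in control cells and at 4.18, 4.21, 3.93 and 4.12 with irisin. The groups did not overlap, with a change of -0.24 (SE 0.086, adjusted p = 0.0678). Sec61b, a subunit of the channel, had a change of -0.022 (SE 0.096, adjusted p = 0.909), its control values running from 5.25 to 5.46 and its irisin values from 5.18 to 5.50. Counting over the 32 genes, the irisin arrays were all above the controls in 1 (Edem1) and all below in 5 (Hspa5, Calr, Creld2, Derl2 and Ssr1). Of all tested genes 4.14% and 19.6% were so separated, and of the 7156 genes in the 5 brighter bins 258 and 707 were. The difference from these shares was not tested.

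**Figure D4:**
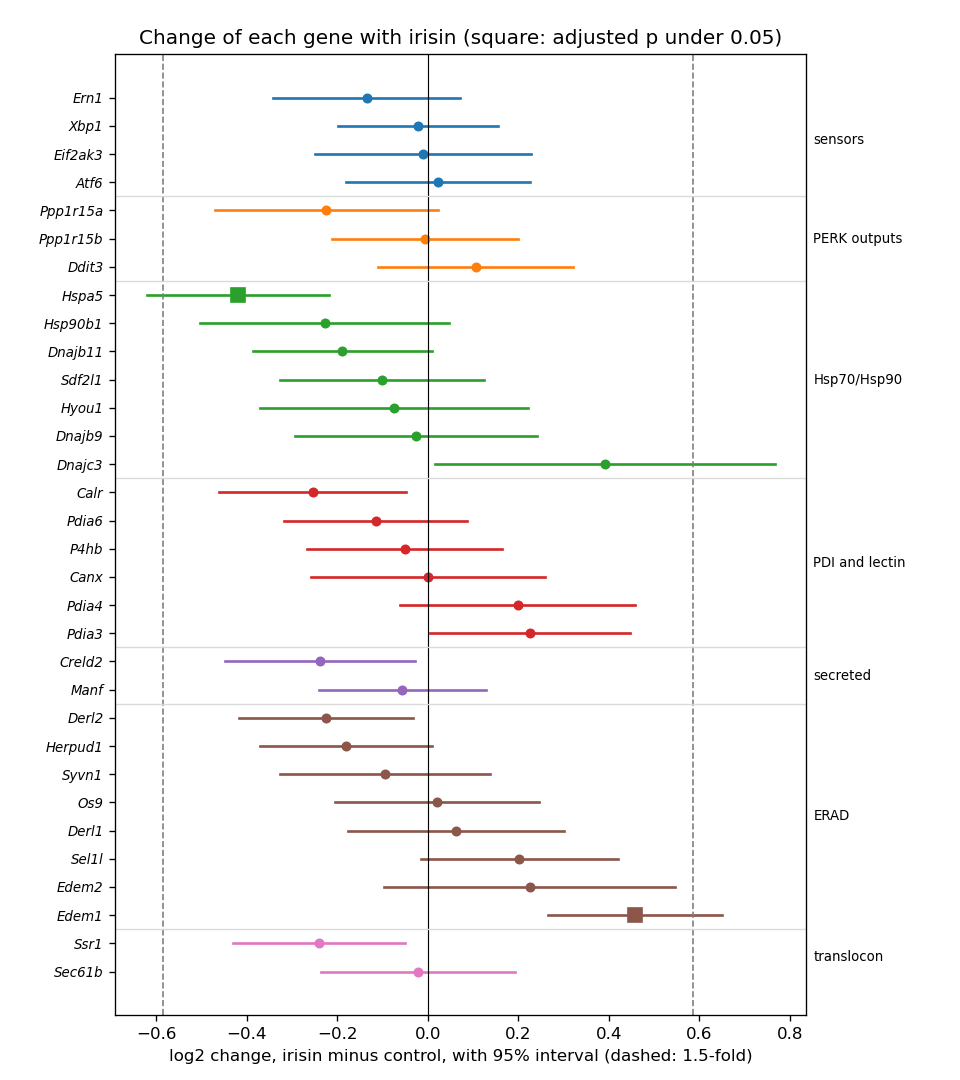
Log2 change with irisin of the 32 tested ER genes with its 95% interval, ordered within each role (colors), with squares for an adjusted p under 0.05 and dashed lines at 1.5-fold. Edem1 (0.46) and Hspa5 (-0.42) are the squares, and their intervals and that of Dnajc3 are the 3 that cross a dashed line.

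Probes of the same gene did not always give the same change. Of 7 genes with several probes, 6 had more than 1 tested probe, and in 5 of these 6 the brightest probe, which stood for the gene, had the lowest change. For Ssr1 the brightest probe gave -0.24 and the others 0.014 and 0.25. For Derl2 the values in order of brightness were -0.22, -0.11 and 0.057. Dnajb9 gave -0.026 and 0.22, Pdia6 -0.12 and 0.041, and Sec61b -0.022 and 0.085. In Derl1 the brighter probe had the higher value, 0.063 against -0.030. No probe of these 6 genes had an adjusted p under 0.05. The dim probe of Dnajb11 was above background on no array.

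The 4 irisin arrays differed among themselves in these genes. Irisin replicate 2 was the highest of its group in 18 of the 32 genes and the lowest in 6, and irisin replicate 3 was the lowest in 18. The median SD of a gene was 0.0922 in the control group and 0.142 in the irisin group, or 0.0929 when replicate 2 was left out of the latter. Without that array 0 of the 32 genes were called, and their median change was -0.089. The adjusted p alone was passed by 2 higher genes (Edem1 and Dnajc3) and 7 lower genes (Hspa5, Dnajb11, Herpud1, Creld2, Ppp1r15a, Ssr1 and Derl2). Over all tested genes the median without that array was -0.094, with 145 called higher and 1566 called lower. The share of all tested genes past the adjusted p alone in this setting is not given here. Whether the ER genes differ from other genes in these counts therefore cannot be read from them.

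Grouping the genes by promoter element was done after their values were seen, and is given as a description. Of the 11 genes with an ERSE or ERSE-II, 10 were tested. All but Dnajc3 had a change below 0 (9 of 10), and the median was -0.18. The 17 tested genes with a promoter and neither element had 10 changes below 0 and a median of -0.022. The probes of the first group were brighter, at a median signal percentile of 92.4 against 77.0, and the median change of the brightest bin of all genes was -0.15. With quantile normalization the medians were -0.0082 (5 above 0 and 5 below) and 0.11, and with cyclic loess -0.011 (4 above and 6 below) and 0.088. With normexp they were -0.15 (4 above and 6 below) and 0.082, farther apart than with the 75th percentile alone. Outside the ER genes chosen here, 38 genes held an element, of which 20 were tested, with a median of -0.0026 and 1 called lower, 4930402F11Rik.

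Other genes of the same pathways were taken from lists written from general knowledge. Of these lists, genes other than the called ones were picked for the text after their values were seen. Of 22 other signaling genes of the response, 1 was called lower and 0 were called higher, with a median of -0.092. The called gene was Ern2, a relative of Ern1 known from gut epithelium, at -5.25, -5.60, -5.21 and -5.18 in control cells and -5.82, -5.85, -6.05 and -6.01 with irisin. Its change of -0.63 (SE 0.11, adjusted p = 0.00183) came from a dim probe and was -0.21 (adjusted p = 0.219) with quantile normalization and -0.18 (adjusted p = 0.254) with cyclic loess. Atf4, the factor whose translation PERK favors, had a log2 change of -0.35 and Sesn2, an ATF4 target, -0.39, with adjusted p-values of 0.0298 and 0.0301 and changes under 1.5-fold. The Atf4 probe was at signal percentile 99.6, and the median change of the brightest bin of all genes was -0.15. Values of Atf4 and Sesn2 under other scalings are not given here. Trib3, Chac1 and Atf3, targets of ATF4 and CHOP, had changes of -0.12, -0.090 and 0.16, with adjusted p-values of 0.485, 0.630 and 0.240.

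Of 27 other folding enzymes tested, 1 was called higher and 0 lower, with a median of -0.00028. Txndc5, a protein disulfide isomerase, was at 0.60, 0.66, 0.71 and 0.59 in control cells and at 0.97, 1.62, 1.23 and 1.16 with irisin. All irisin values were above all controls, most of all on replicate 2, and the change was 0.60 (SE 0.13, adjusted p = 0.00483). Without irisin replicate 2 it was 0.48, with an adjusted p of 0.00274, which is under 1.5-fold. Ero1a, the oxidase that recharges the isomerases, had a log2 change of 0.35 with an adjusted p of 0.0105, and Selenof, a selenoprotein that binds the folding sensor UGGT, had -0.29 with an adjusted p of 0.0239. The Selenof probe was bright, at signal percentile 95.9, and its change under other scalings is not given here. None of the 21 other ERAD genes tested was called, and their median was -0.11.

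Among 25 other genes of the translocon, signal peptidase and oligosaccharyltransferase, 1 was called higher and 0 lower, with a median of -0.057. Stt3a, a catalytic subunit of the oligosaccharyltransferase that adds N-glycans as proteins enter the ER, was at -0.30, -0.17, -0.32 and -0.35 in control cells and at 0.56, 0.36, 0.48 and 0.15 with irisin. It was higher on all irisin arrays, by 0.67 (SE 0.10, adjusted p = 0.000758). Other subunits of the enzyme had changes in both directions, with Tusc3 at 0.30 (adjusted p = 0.0124), Ostc at 0.27 (adjusted p = 0.0623), Rpn2 at -0.29 (adjusted p = 0.0195) and Stt3b at -0.045 (adjusted p = 0.731). Sec61g, a channel subunit, had a change of -0.48 (adjusted p = 0.00271). The probes of Sec61g and Rpn2 were bright, at signal percentiles 95.3 and 94.0, and their changes under other scalings are not given here. Of 24 genes of transport from ER to Golgi, 0 were called, and the COPII coat genes Sec24a and Sec24d had changes of 0.45 and 0.49 with adjusted p-values of 0.00942 and 0.0197.

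**Figure D5:**
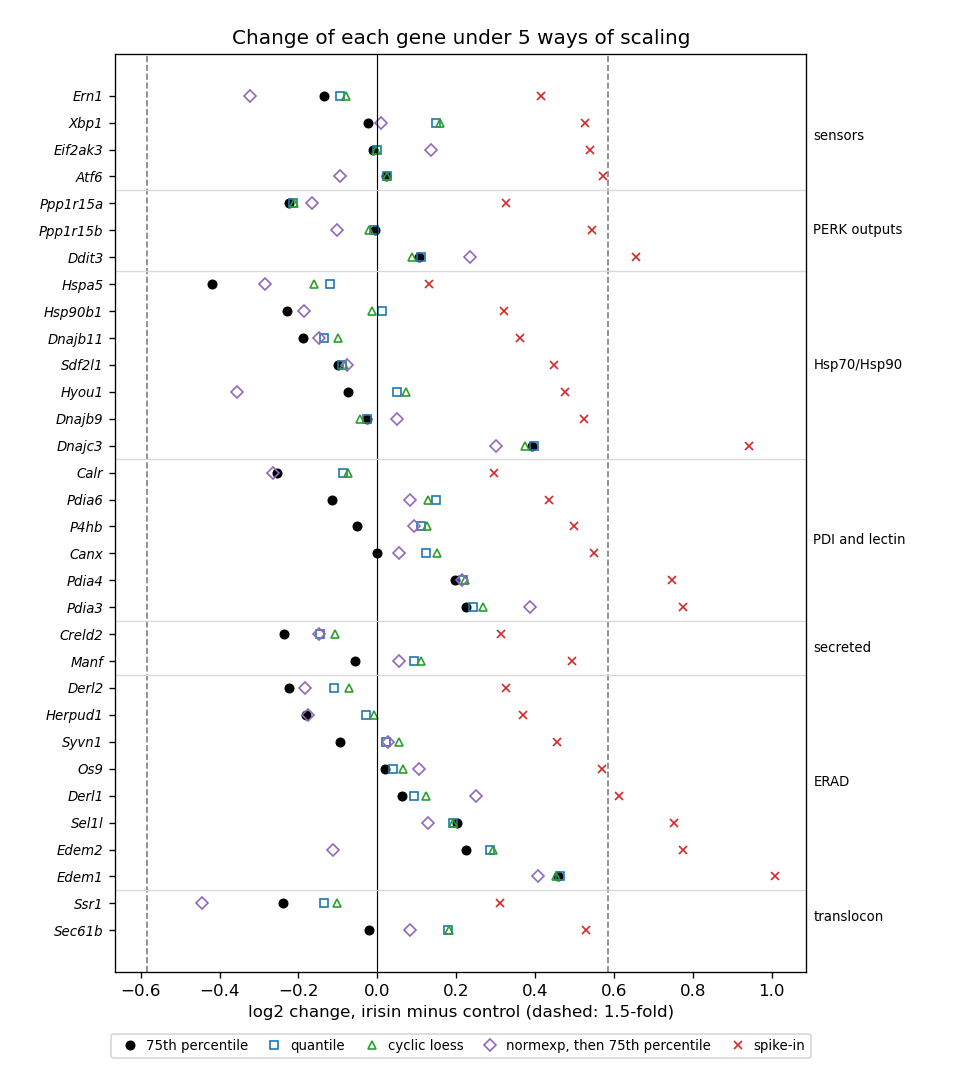
Log2 change with irisin of each tested ER gene after scaling to the 75th percentile (black), quantile normalization (blue), cyclic loess (green), normexp with the 75th percentile (purple) and spike-in scaling (red), with dashed lines at 1.5-fold. Edem1 stays above 0 in all 5, Hspa5 runs from -0.42 to 0.13, and spike-in scaling places all 32 genes above 0.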

How the data were processed

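The authors hybridized Cy3-labeled RNA of 8 AML12 samples to Agilent arrays, and Feature Extraction (12.0.3.1 per the file headers) turned the scans into background-subtracted values. The deposited signal intensity is linear and not normalized between arrays. Here, control spots and marked spots (at most 0.463% of an array) were left out, spots of a probe were averaged, and log2 values of the processed signal were centred on each array's 75th percentile. The deposited value table was used as an alternative only. Probes were named by accession through the RefSeq table of GRCm38.p6 (28663 of 39429, 72.7%). The files give positions on mm9, so none is printed. No spot was saturated, and the number of arrays limits the precision.

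The fit (limma 3.58.1, lmFit and eBayes, R 4.3.3) covered 24093 probes that passed the scanner's test of being well above background on every array (4) of either group, with Benjamini-Hochberg adjustment over all of them. A gene was called at an adjusted p under 0.05 and 1.5-fold, the thresholds of the study's methods, and its brightest tested probe stood for it. On simulated arrays 86.5% of 200 probes changed by 1 on the log2 scale were called, with 4 false calls among 24023 probes. Named by rule were any of the 33 genes and the called genes of the other lists, and further genes of those lists were picked after their values were seen. The genes and the lists were chosen with earlier results of these data known.

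Alternatives were normexp (offset 50), quantile, cyclic loess, detected-probe median, 7 spike-in probes, no scaling, the value table, other filters and thresholds, an intensity trend, the methods' analysis of variance, a replicate block and each array left out. Normexp used the median spot signal, the raw signal column the files hold, and left out up to 2.92% of spots with a marked local background, with which it could not be fitted. Adjusted-p counts under each alternative and the split by promoter element were added after seeing the data. Python 3.11.15, pandas 2.3.3 and matplotlib 3.10.9 read the files and drew the plots.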

Additional observations from a re-analysis of the deposited data

Results flagged for a closer look

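Of 64 groups of 4 arrays checked for an array far from its group (32 genes in each group), 2 had such an array, and chance flags about 1 in 20. Dnajc3 was at -1.03 on control replicate 2, below the other control arrays at -0.51 to -0.41. Syvn1 was at 4.62 on irisin replicate 2, above the other irisin arrays at 4.26 to 4.31.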

How the results depend on the processing

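The counts of 0 ER genes called higher and 0 called lower held under the methods' analysis of variance, a 2-fold threshold, normexp, quantile normalization, cyclic loess, the detected-probe median, the deposited value table, marked spots kept, the intensity trend, the stricter filter, the mean over a gene's probes and each array left out. Called higher were 8 genes after spike-in scaling, 23 without any scaling and 1 with the adjusted p alone. Called lower were 1 gene with the adjusted p alone and 1 with no filter on dim probes, Derl3, which is near background. The median log2 change of the ER genes was 0.018 with normexp, 0.032 with quantile normalization, 0.060 with cyclic loess, 0.51 after spike-in scaling and 0.70 without scaling, and it ran from -0.089 (without irisin replicate 2) to -0.027 as each array was left out. The scalings moved the all-gene median too, to 0.0053 with quantile normalization, 0.012 with cyclic loess, 0.49 after spike-in scaling and 0.67 without scaling. In that order, all tested genes had 286, 303, 3945 and 9562 called higher and 546, 491, 208 and 81 called lower. Calls higher and lower were 25 and 1857 with normexp, 84 and 6263 with no filter, and 48 and 1345 with the analysis of variance. They were 6 and 385 at 2-fold, 145 and 1566 without irisin replicate 2, and 41 and 1402 without irisin replicate 3. Normexp moved the all-gene median the other way from the ER median, to -0.10 from -0.064 in the main fit. The ER median lay 0.12 above the all-gene median with normexp, against 0.026 in the main fit.

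With no scaling these genes turned from below 0 to a called increase: Dnajb9 (0.71), Xbp1 (0.72), Ern1 (0.60), Eif2ak3 (0.73), Sdf2l1 (0.64), Syvn1 (0.64), Pdia6 (0.62), P4hb (0.69), Canx (0.74), Manf (0.68), Hyou1 (0.66), Sec61b (0.72) and Ppp1r15b (0.73). Ern2 turned to 0.11 and was -0.58, just under 1.5-fold, without control replicate 4. Txndc5 was 0.54 with normexp, under 1.5-fold. Of the 32 genes, 11 changed sign with normexp, 9 with quantile normalization and 8 with cyclic loess, all uncalled. Past the adjusted p alone were 3 higher (Edem1, Pdia3 and Derl1) and 5 lower (Hspa5, Ern1, Calr, Hyou1 and Ssr1, the last with values on only 3 arrays) with normexp, 1 higher and 4 lower (Hspa5, Calr, Ssr1 and Derl2) with the intensity trend, 1 higher and 0 lower under either of quantile normalization or cyclic loess, 13 and 0 after spike-in scaling, and 31 and 0 without scaling. The cause of these differences was not tested. The shares of all tested genes past the adjusted p alone under these settings are not given here. In the main fit these shares were 2.65% higher and 17.9% lower. Whether the ER genes differ from all genes in these counts therefore cannot be read from them.

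The labels do not say whether the replicate numbers pair the samples. Arrays of the same number deviated from their group means with correlations of 0.11, -0.35, -0.13 and 0.17. Those of different numbers had correlations from -0.24 to 0.36, so with 4 arrays in each group these values cannot decide it. With the replicate number as a block 0 ER genes were called higher and 0 lower, and their median was -0.038. Of all genes 76 were called higher and 1469 lower with it. By the adjusted p alone 2 ER genes were higher (Dnajc3 and Edem1) and 1 lower (Hspa5). The share of all genes past the adjusted p alone with the block is not given here.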
